A study of Mus musculus with 20 samples.

Results

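The 10 Kruppel-like factors Klf2, Klf3, Klf4, Klf5, Klf6, Klf9, Klf10, Klf11, Klf13 and Klf15 were followed in mouse liver. They were taken by gene symbol from a table of 38924 genes, where each symbol had 1 entry, and all 10 were among the 14524 genes that passed the filter on low values (FPKM above 0.5 in at least 5 libraries). Klf5 passed it through its CDAHFD livers alone, so that a difference with diet was built into its passing. The 10 genes lie on 10 chromosomes (GRCm38 coordinates), Klf6 at chr13:5861489-5870393, Klf5 at chr14:99298691-99313405, Klf4 at chr4:55527143-55532466, Klf11 at chr12:24651371-24662774, Klf10 at chr15:38294413-38300707, Klf13 at chr7:63886347-63938915 and Klf15 at chr6:90462576-90475238, with Klf2, Klf3 and Klf9 on chromosomes 8, 5 and 19. RNA-seq libraries from poly(A) RNA were made from 20 male mice, 5 per group, bought at 5 weeks of age and fed for 12 weeks. NDWT livers came from C57BL/6J wild type (WT) mice on a control diet and HFWT livers from WT mice on CDAHFD. CDAHFD is a high-fat diet without choline, with limited methionine and with defined L-amino acids in place of protein. It was used as a model of non-alcoholic steatohepatitis. NDKO and HFKO livers were labelled as TSP-1 null on the control diet and on CDAHFD. TSP-1 (thrombospondin 1) is the secreted product of Thbs1, and the null allele is carried in every tissue. The TSP-1 null and WT mice were bought as separate strains and no source calls them littermates, so genotype and strain stock cannot be told apart.

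Kruppel-like factors are transcription factors that bind GC-rich and CACCC-containing DNA through 3 zinc fingers at their carboxyl end. They differ in the rest of the protein, so that some mostly activate and others mostly repress. In liver, Klf15 and Klf9 are known as fasting- and hormone-responsive regulators in hepatocytes, Klf6 was first isolated from activated stellate cells, and Klf2 and Klf4 are best known from endothelium.

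The unit is FPKM, the fragments of a gene normalised for its length and for all fragments assigned to genes in the library, so levels can be set side by side between genes. A gene was called between groups when limma's FDR (Benjamini-Hochberg over all 14524 genes) was under 0.05 and its log2FC exceeded 0.58 in size. Every log2FC is the difference of mean log2(FPKM + 0.1), which understates the change of low genes. Libraries held 15641558 to 23276326 fragments. Thbs1 itself did not follow the labels: it lay between 0.0580 and 0.326 FPKM in NDWT and between 0.986 and 1.90 in the libraries labelled NDKO, a log2FC of 2.28 ± 0.24 (SE) with an FDR of 1.02e-05 in limma, and on CDAHFD its log2FC of −0.39 had an FDR of 0.408. One value per gene does not separate a deleted part of Thbs1 from the rest, so neither genotype could be checked, and each direction between genotypes below rests on the labels. Hepatocyte markers were present in every group, with the 8 of them summing to between 28353 and 48041 FPKM over all libraries.

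The promoters of Klf4, Klf6, Klf11 and Klf15 are shown because results below turn on these genes and because they were the members whose promoter held the hexamer CACGTG. RefSeq promoters (build GRCm38.p6) were matched by symbol for 8 of the 10 genes, and none was at hand for Klf5 and Klf10. Each sequence is the 250 bases before the gene's RefSeq start, 5′ to 3′ on the gene's strand, with CACGTG in capitals. Klf4 is at chr4:55532476-55532725 on the minus strand, and Klf6 at chr13:5861239-5861488, Klf11 at chr12:24651121-24651370 and Klf15 at chr6:90462326-90462575 are on the plus strand.
Klf4: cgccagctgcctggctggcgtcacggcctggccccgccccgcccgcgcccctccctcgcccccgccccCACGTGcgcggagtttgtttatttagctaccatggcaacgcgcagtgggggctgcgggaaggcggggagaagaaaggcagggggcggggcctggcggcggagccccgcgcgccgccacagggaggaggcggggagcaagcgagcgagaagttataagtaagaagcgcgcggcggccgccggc
Klf6: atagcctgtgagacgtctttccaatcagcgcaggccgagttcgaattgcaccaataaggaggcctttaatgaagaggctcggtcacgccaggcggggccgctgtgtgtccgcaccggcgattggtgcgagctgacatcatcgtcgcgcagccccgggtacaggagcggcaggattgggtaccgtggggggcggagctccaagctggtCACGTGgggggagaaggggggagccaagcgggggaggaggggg
Klf11: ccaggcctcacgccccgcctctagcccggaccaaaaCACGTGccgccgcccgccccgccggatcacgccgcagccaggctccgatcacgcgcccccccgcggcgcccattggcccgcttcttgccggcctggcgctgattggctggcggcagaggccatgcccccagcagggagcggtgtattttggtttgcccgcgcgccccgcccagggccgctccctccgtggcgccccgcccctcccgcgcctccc
Klf15: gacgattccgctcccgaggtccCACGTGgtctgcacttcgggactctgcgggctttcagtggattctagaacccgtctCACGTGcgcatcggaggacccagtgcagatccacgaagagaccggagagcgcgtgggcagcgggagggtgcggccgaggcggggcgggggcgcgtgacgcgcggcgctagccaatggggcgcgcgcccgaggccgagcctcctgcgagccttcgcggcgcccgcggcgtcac
CACGTG, which reads the same on both strands and is the E-box that clock and USF proteins can bind, occurred in 4 of the 8 members and in 6.02% of 32851 promoters of the same length. Klf15 held 2 copies, starting 228 and 172 bases before the gene. Klf6 held 1 copy, starting 43 bases before it, and the single copies of Klf4 and Klf11 started 182 and 214 bases before theirs. GGGCGG, the GC box, was found on either strand in 7 of the 8 (every one but Klf9) and in 32.7% of all promoters, and CACCC, the element that names the family's DNA preference, in 5 of the 8 and in 52.0%. The 8 promoters were 59.6 to 78.4% G and C, against a median of 52.4% over all promoters. The palindrome TGACGTCA, the half-site TGTTCT and the CArG box were found in none of the 8 and in 1.55%, 16.1% and 1.47% of all promoters. A MEF2 site was found in Klf2 and in 2.92% of all promoters. Both strands were searched, and neighbouring matches of GGGCGG and CACCC can share bases. These matches describe letters only.

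Klf15 was the most abundant member in every group and Klf5 the least. In NDWT the order of mean FPKM was Klf15 (53.2), Klf9 (37.0), Klf3 (18.6), Klf10 (6.32), Klf2 (5.61), Klf11 (5.57), Klf13 (4.90), Klf6 (2.68), Klf4 (0.667) and Klf5 (0.0166). The 5 values of neighbours in this order overlapped only for Klf10 with Klf2, Klf2 with Klf11 and Klf11 with Klf13. In NDKO the first 3 kept this order, but Klf13 (8.23) and Klf2 (7.49) stood above Klf10 (4.37) and Klf11 (2.74), and from Klf13 down to Klf6 each gene overlapped the next in line. On CDAHFD, Klf6 moved from the eighth place to the third in HFWT (20.4, overlapping Klf3 at 19.4) and to the fourth in HFKO (15.4, overlapping Klf13 at 13.4). Klf15 and Klf9, which did not overlap on the control diet, overlapped on CDAHFD, although Klf15 was the higher in all 5 livers of each CDAHFD group.

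The 10 genes summed to 134.5 ± 13.2 FPKM (SD, n = 5) in NDWT and to 163.6 ± 19.4 in NDKO. On CDAHFD the sums were 151.2 ± 1.93 for HFWT and 179.3 ± 18.6 for HFKO. Klf15 made up 39.7 ± 3.45% of the sum in NDWT and 46.5 ± 2.81% in NDKO, and 27.0 ± 2.36% and 31.3 ± 1.45% in HFWT and HFKO. Klf6 went the other way with diet, from 2.02 ± 0.48% and 1.46 ± 0.33% to 13.5 ± 0.75% and 8.58 ± 1.30%. The ranges of the Klf6 share did not meet between the diets, with at most 2.74% on the control diet and at least 6.89% on CDAHFD.

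**Figure D1:**
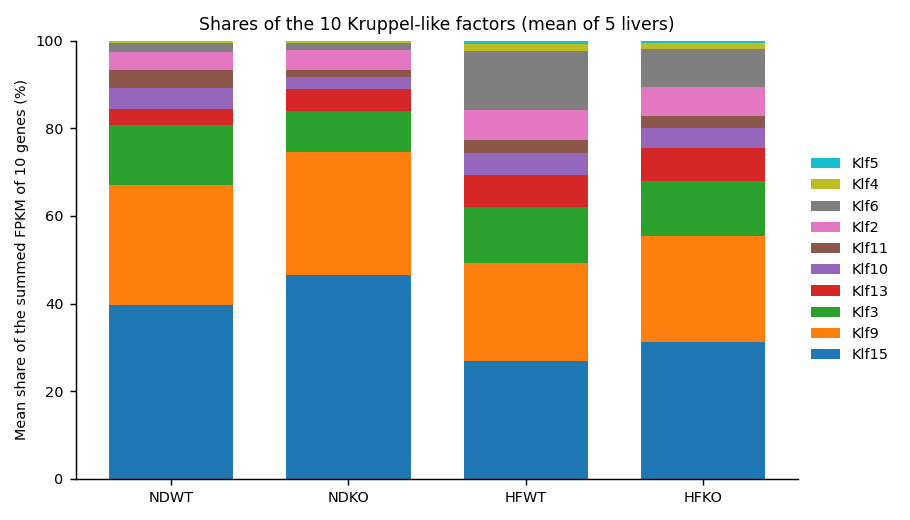
Stacked bars show each gene's mean share (percent, n = 5 livers) of the summed FPKM of the 10 Kruppel-like factors in NDWT, NDKO, HFWT and HFKO. Klf15 (blue, bottom) is the largest block in each bar, and Klf6 (grey) widens from 2.02% and 1.46% on the control diet to 13.5% and 8.58% on CDAHFD.

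**Figure D2:**
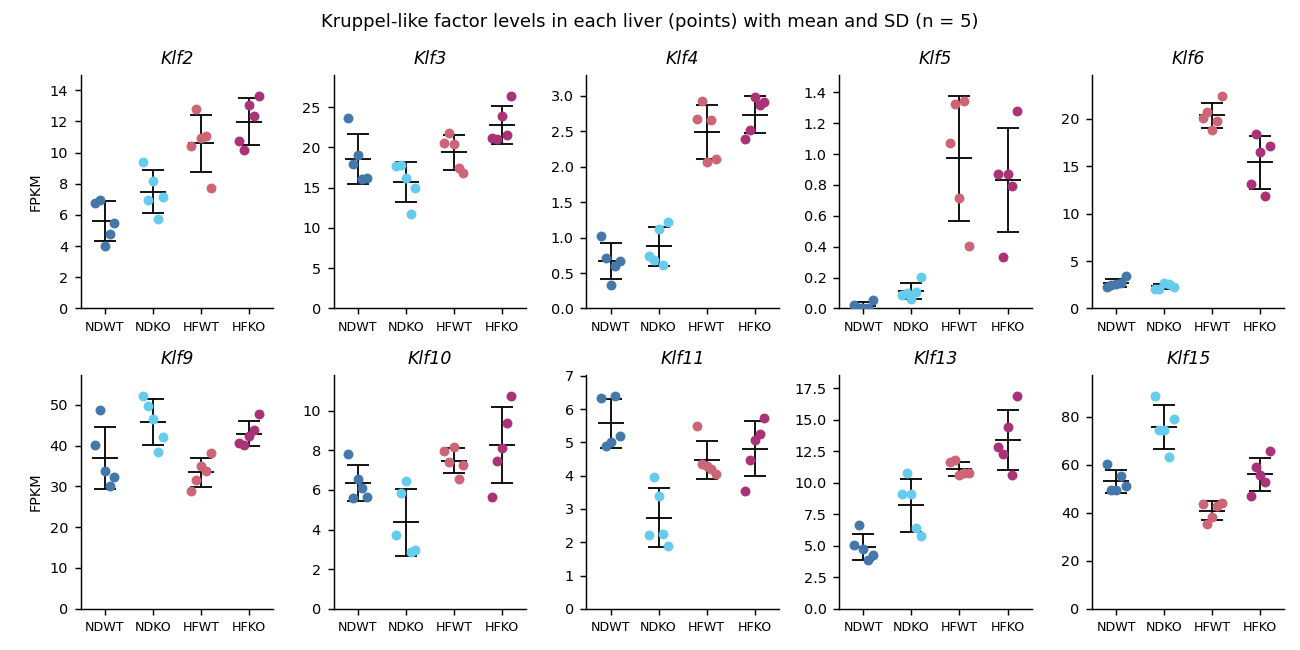
Each panel plots 1 gene, with FPKM on a linear axis from 0 and 1 point per liver, the horizontal bar at the mean and whiskers of 1 SD (n = 5 per group). Klf4, Klf5 and Klf6 separate by diet in both genotypes, Klf11 is lowest in NDKO, and Klf15 is higher in NDKO and HFKO than in the WT group on the same diet.

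The first comparison asked which of the factors differed with CDAHFD in each genotype. In WT livers 5 of 10 rose (Klf6, Klf5, Klf4, Klf13 and Klf2) and none fell, where 44.1% of all genes tested were called higher and 4.62% lower. In TSP-1 null livers 7 of 10 rose, the same 5 with Klf10 and Klf11, and none fell, where 41.9% were called higher and 4% lower. Both counts include Klf5, whose difference with diet was built into its passing the filter. The members' median log2FC was 0.58 in WT and 0.77 in TSP-1 null livers, beside 0.53 and 0.50 over all genes tested. The diet groups did not overlap for 6 members in WT and 5 in TSP-1 null livers, beside 56.2% and 57.8% of all genes. The WT count lay near the share over all genes, and the size of each change is therefore also given against the median of all genes. That median depended on scaling: it was −0.01 in both genotypes when libraries were scaled by the median of ratios and −0.09 in both after quantile normalization. Median of ratios gave 4 members higher (Klf6, Klf5, Klf4 and Klf13) and 3 lower (Klf11, Klf15 and Klf9) in WT, and 3 higher (Klf6, Klf5 and Klf4) and 2 lower (Klf15 and Klf9) in TSP-1 null livers. Quantile normalization gave 4 higher and 1 lower (Klf11) in WT and 2 higher in TSP-1 null livers. Only Klf6 and Klf4 were called higher in both genotypes under both of those scalings as well.

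Klf6, a zinc finger activator that is induced early in injured tissue, had the lowest FDR of the 10 in both diet comparisons. It measured 2.28, 2.43, 2.62, 2.65 and 3.41 FPKM in NDWT and 20.1, 20.7, 18.8, 19.8 and 22.4 in HFWT. In NDKO it measured 2.09, 2.01, 2.68, 2.60 and 2.30, and in HFKO 13.1, 18.4, 16.5, 11.8 and 17.1. Every CDAHFD liver stood above every control-diet liver, and the lowest HFWT liver stood above the highest HFKO liver. Klf6 rose with a log2FC of 2.89 ± 0.12 (SE, 7.42-fold) in WT and 2.66 ± 0.12 (6.31-fold) in TSP-1 null livers, which is 2.36 and 2.16 above the median of all genes, with limma FDRs of 5.03e-13 and 2.13e-12. Under the other scalings its log2FC lay between 2.08 and 2.38.

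Klf4, a factor of epithelial barriers and endothelium, measured 1.03, 0.707, 0.332, 0.592 and 0.674 FPKM in NDWT and 2.67, 2.92, 2.07, 2.66 and 2.11 in HFWT. In NDKO it measured 0.747, 0.678, 1.12, 0.616 and 1.22, and in HFKO 2.39, 2.52, 2.99, 2.87 and 2.91. The diet groups did not overlap in either genotype. The log2FC of Klf4 was 1.81 ± 0.21 for WT and 1.58 ± 0.21 for TSP-1 null livers, both called, 1.28 and 1.08 above the median of all genes (limma FDR 2.40e-07 and 1.57e-06). Quantile normalization gave 0.85 and 0.75, both still called.

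Klf5, known for driving growth of epithelial progenitor cells, was at the edge of detection on the control diet. Its values in NDWT were 0.0250, 0, 0, 0 and 0.0580 FPKM, from at most 2 fragments in a library, and in HFWT 1.07, 1.33, 0.717, 1.34 and 0.403. In NDKO it measured 0.0840, 0.102, 0.0620, 0.109 and 0.201 (2 to 7 fragments), and in HFKO 0.868, 0.334, 0.872, 0.794 and 1.28. All CDAHFD livers stood above all control-diet livers. Set against a floor of 3 fragments per library, a mean of 0.0932 FPKM in NDWT, Klf5 was at least 10.4-fold higher in HFWT. The fitted log2FC was 3.12 ± 0.32 in WT, where it depends on the added 0.1, and 2.08 ± 0.32 in TSP-1 null livers (limma FDR 5.22e-08 and 1.09e-05). Because Klf5 passed the filter through its CDAHFD livers alone, these FDRs are not an independent test of its diet difference. In TSP-1 null livers the call was lost after quantile normalization (log2FC 0.78, FDR 0.0676).

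Klf2, the flow-responsive factor of endothelium and a keeper of lymphocyte quiescence, measured 6.79, 6.98, 4.02, 4.76 and 5.48 FPKM in NDWT and 10.4, 12.8, 10.9, 11.1 and 7.74 in HFWT. In NDKO it measured 9.42, 6.98, 8.17, 5.76 and 7.15, and in HFKO 10.7, 10.1, 13.1, 12.3 and 13.6. The diet groups did not overlap in either genotype. Klf2 rose by a log2FC of 0.92 ± 0.16 in WT (limma FDR 3.41e-05) and 0.68 ± 0.16 in TSP-1 null livers (FDR 7.66e-04), which is 0.39 and 0.18 above the median of all genes. Both calls were lost under median of ratios (0.36 and 0.15) and quantile normalization (0.39 and 0.21), all still positive.

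Klf13, which is known from control of chemokine genes in T cells, measured 5.06, 6.62, 4.73, 3.85 and 4.26 FPKM in NDWT and 11.6, 11.8, 10.6, 10.7 and 10.7 in HFWT. In NDKO it measured 9.11, 10.8, 9.13, 6.38 and 5.74, and in HFKO 12.9, 12.3, 14.4, 10.6 and 16.9. The WT diet groups were far apart, while the highest NDKO liver stood just above the lowest HFKO liver. Klf13 rose by a log2FC of 1.19 ± 0.16 in WT (FDR 2.08e-06) and 0.72 ± 0.16 in TSP-1 null livers (FDR 5.45e-04), both by limma and 0.65 and 0.22 above the median of all genes. The WT call held under median of ratios and quantile normalization (0.63 and 0.64) and the TSP-1 null call was lost under both (0.19 and 0.27).

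Klf15 and Klf9, known regulators of amino acid and glucose metabolism and of hormone responses, were not called with diet. Klf15 measured 60.5, 49.4, 49.4, 55.2 and 51.3 FPKM in NDWT and 43.8, 35.1, 38.3, 43.0 and 44.0 in HFWT. In NDKO it measured 88.7, 74.4, 74.5, 63.3 and 79.0, and in HFKO 47.1, 59.0, 55.9, 52.8 and 65.6. The WT groups did not overlap, and in TSP-1 null livers 1 HFKO liver stood above the lowest NDKO liver. The log2FC of Klf15 was −0.38 ± 0.10 in WT (FDR 0.00160) and −0.44 ± 0.10 in TSP-1 null livers (FDR 4.94e-04), under the FDR threshold of limma but short of the fold threshold. It was the only member so placed below 0, where 8.73% and 7.69% of all genes were lower at that FDR with no fold threshold. Against the median of all genes it was −0.91 and −0.93, and median of ratios scaling called it lower in both genotypes (−0.94 and −0.97). Klf9 lay between 30.1 and 48.8 FPKM in NDWT, 28.9 and 38.3 in HFWT, 38.4 and 52.2 in NDKO, and 40.1 and 47.9 in HFKO, and its log2FC of −0.13 and −0.09 became −0.69 and −0.62, called lower, under median of ratios.

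Klf3, a repressor that recruits CtBP, lay between 16.0 and 23.6 FPKM in NDWT, 16.8 and 21.8 in HFWT, 11.7 and 17.8 in NDKO, and 21.0 and 26.4 in HFKO. Its diet log2FC was 0.07 ± 0.12 in WT (FDR 0.621) and turned to −0.49 and −0.28 under median of ratios and quantile normalization. In TSP-1 null livers the groups did not overlap, and the log2FC of 0.55 ± 0.12 (limma FDR 4.55e-04) fell short of the fold threshold and was 0.05 above the median of all genes. Leaving out NDKO replicate 1 or 2 brought it past the threshold (0.59 and 0.60), while median of ratios gave 0.01 (FDR 0.914) and quantile normalization 0.20 (FDR 0.0953).

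**Figure D3:**
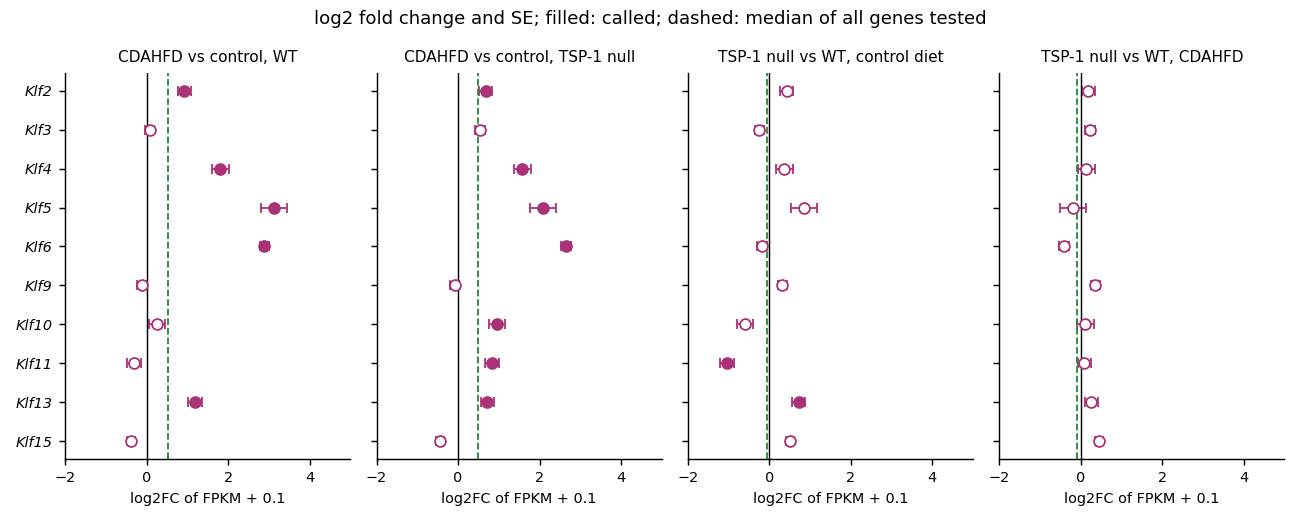
Points give each gene's log2FC of FPKM + 0.1 with its SE in the 4 comparisons, filled where called (FDR under 0.05 and size above 0.58); the solid line is 0 and the dashed line the median of all 14524 genes (0.53, 0.50, −0.07 and −0.10 from left to right). Klf6, Klf5 and Klf4 lie farthest right of the dashed line with diet, while Klf3 and Klf10 in WT, right of 0 here, turn negative under the 2 other scalings; on the control diet Klf11 is lower and Klf13 higher in livers labelled TSP-1 null.

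Klf10 and Klf11, the TGF-beta-inducible early genes that repress through Sin3 complexes, were called with diet in TSP-1 null livers and not in WT livers. Klf11 measured 6.35, 4.90, 5.02, 6.39 and 5.19 FPKM in NDWT and 2.22, 3.96, 3.40, 2.23 and 1.90 in NDKO. On CDAHFD it measured 5.49, 4.37, 4.30, 4.21 and 4.06 in HFWT and 3.56, 4.48, 5.06, 5.25 and 5.72 in HFKO. On the control diet every NDKO liver was below every NDWT liver, and on CDAHFD the ranges of the genotypes overlapped. Klf11 was lower in NDKO than NDWT by a log2FC of −1.04 ± 0.17 (limma FDR 7.19e-04) and differed by 0.09 ± 0.17 on CDAHFD (FDR 0.814). The diet log2FC was −0.31 ± 0.17 in WT (FDR 0.111) and 0.83 ± 0.17 in TSP-1 null livers (FDR 2.34e-04).

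The difference between these diet effects was itself tested as the interaction of diet and genotype, for which 1 of 10 members was called higher and none lower, beside 0.337% and 0.31% of all genes. That member was Klf11, with a log2FC of 1.13 ± 0.24 and a limma FDR of 0.0301. The interaction kept its size under both other scalings (1.16 and 1.12, FDR 0.0169 and 0.0221), whereas the single diet effects moved with them: in WT Klf11 became called lower (−0.86 and −0.96), and in TSP-1 null livers the call was lost (0.31 and 0.16). The FDR lay close to its threshold, since leaving out any of 12 of the 20 libraries (NDWT 1 or 3, NDKO 1 or 4, HFWT 2 to 5 or HFKO 2 to 5) raised it to between 0.0502 and 0.0667, with a log2FC of 1.07 to 1.17. With no filter on low values it was 0.0538.

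Klf10 measured 7.79, 5.57, 6.55, 6.09 and 5.63 FPKM in NDWT and 3.71, 5.87, 6.46, 2.86 and 2.96 in NDKO. On CDAHFD it measured 7.96, 7.41, 8.16, 6.57 and 7.28 in HFWT and 5.62, 7.45, 8.12, 9.37 and 10.7 in HFKO. NDKO livers fell into 3 below every NDWT liver and 2 within the NDWT range, and HFKO spanned a wider range than HFWT on both sides. The genotype log2FC on the control diet was −0.59 ± 0.20 (limma FDR 0.0576), and it passed when NDKO replicate 2 or 3 or HFKO replicate 1 was left out (FDR 0.0252, 0.0157 and 0.0469). The diet log2FC was 0.24 ± 0.20 in WT, turning to −0.31 and −0.33 under median of ratios and quantile normalization, and 0.95 ± 0.20 in TSP-1 null livers (FDR 3.07e-04), a call lost under both scalings (0.43 and 0.38). The Klf10 interaction of 0.71 ± 0.28 had an FDR of 0.238.

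Within groups Klf10 and Klf11 also varied together. After each group's mean log2(FPKM + 0.1) was removed, Pearson's r between them was 0.88 over 20 libraries, and of all tested genes Klf11 was the closest to Klf10 and Klf10 the closest to Klf11. The livers of a group share tissue dissection and library scaling, so r is given as a description. Next after Klf11, the genes closest to Klf10 were Ubl3 (0.87) and Nr4a2 (0.86), and after Klf10 those closest to Klf11 were Pvr (0.84) and Ubl3 (0.83).

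**Figure D4:**
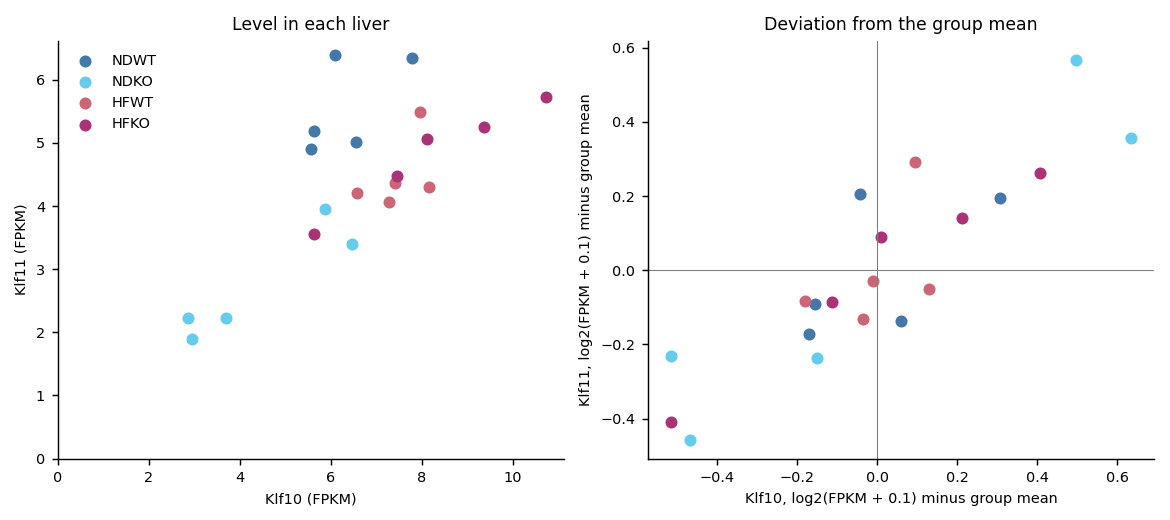
Each point is 1 liver, coloured by group (NDWT dark blue, NDKO light blue, HFWT red, HFKO purple). Left, Klf10 against Klf11 in FPKM, where the 3 NDKO livers at the lower left lie below 4 FPKM of both; right, the deviations of both from their group means of log2(FPKM + 0.1), where Pearson's r is 0.88 over 20 libraries.

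The next closest pairs of members were Klf9 with Klf13 (r 0.69) and Klf2 with Klf4 (0.67), and the lowest r was −0.33, for Klf3 with Klf6. By the same measure the genes closest to Klf2 were Ctu1, Cops7a and Clasrp (0.86 to 0.88), those closest to Klf4 were Ubp1, Calcoco1 and Exoc3l (0.77 to 0.85), and those closest to Klf5 were Fcor, Fbxl12 and Tmem54 (0.83 to 0.89). Klf5 had at most 7 fragments in a control-diet library, and Tmem54 had a mean of 0.0082 FPKM in NDWT and 0 in NDKO. The r values of Klf5 therefore include libraries at the edge of detection. Klf6 had the weakest neighbours, Vav3, Slc25a43 and Phc3 (0.72 to 0.74), and Klf13 was nearest to Bahd1, Bcl2a1d and Pgs1 (0.87 to 0.89).

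The genotype comparison on the control diet asked which factors differed with the TSP-1 null label alone. Klf13 was called higher and Klf11 lower in NDKO, 1 of 10 members each way, where 1.74% of all genes were called higher and 3.03% lower. The members' median log2FC was 0.34, beside −0.07 over all genes, and 3 members (Klf5, Klf11 and Klf15) did not overlap between genotypes, beside 9.03% of all genes. Klf13 differed by a log2FC of 0.72 ± 0.16 (limma FDR 0.00643), with the NDKO livers at 5.74 and 6.38 FPKM inside the NDWT range (3.85 to 6.62). Klf13 contains the opposite-strand gene E030018B13Rik, which was at 0.212 to 0.889 FPKM in NDWT, 1.42 to 5.12 in NDKO, 0.0970 to 0.346 in HFWT and 0 to 0.219 in HFKO. The kit marks strand, but the setting used in counting is not given in the sources used here. The fragments given to E030018B13Rik came to 0.563 to 2.81% of those of Klf13 in NDWT and 2.10 to 12.0% in NDKO, and their part in the Klf13 difference was not tested. A further opposite-strand gene within Klf13, RP23-387F1.3, lay between 0.334 and 2.64 FPKM over all libraries.

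Klf15 was higher in livers labelled TSP-1 null than in WT livers on both diets. All 5 NDKO livers (63.3 to 88.7 FPKM) stood above all 5 NDWT livers (49.4 to 60.5), and all 5 HFKO livers (47.1 to 65.6) above all 5 HFWT livers (35.1 to 44.0). The log2FC was 0.51 ± 0.10 on the control diet (FDR 0.00223) and 0.45 ± 0.10 on CDAHFD (FDR 0.0271), both under limma's FDR threshold but short of the fold threshold of 0.58. Over 31 alternatives of processing the limma FDR lay between 9.63e-04 and 0.0132 on the control diet. On CDAHFD it lay between 0.00607 and 0.0733, so that difference did not stay under the FDR threshold in every alternative. At that FDR with no fold threshold, 3.47% of all genes were higher on the control diet and 0.255% on CDAHFD. Its interaction was −0.06 ± 0.14 (FDR 0.897), and that sign turned after quantile normalization (0.0053). On the control diet median of ratios scaling put Klf15 past the fold threshold (0.59, FDR 9.63e-04), and on CDAHFD no scaling tried did.

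Klf5 was also higher in NDKO than in NDWT without overlap, but from no more than 7 fragments in a library. Against the floor of 3 fragments per library in NDWT it was at least 1.20-fold higher. Its fitted log2FC of 0.85 ± 0.32 had an FDR of 0.0881 and was called under both other scalings (FDR 0.0443 and 0.0440), with a pseudocount of 0.01 (FDR 0.00512) and in a fit of NDWT and NDKO alone (FDR 0.0447).

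On CDAHFD no member was called between genotypes in either direction, where limma called 0.165% of all genes higher and 0.33% lower. At an unadjusted p under 0.05 there were 3 members, Klf15 and Klf9 higher and Klf6 lower in HFKO, beside 17.2% of all genes. These were also the 3 that did not overlap, beside 4.98% of all genes. Klf6 differed by −0.42 ± 0.12 (FDR 0.0953) and Klf9 by 0.36 ± 0.12 (FDR 0.121). The members' median was 0.16, beside −0.10 over all genes. Between the diet effects of the 2 genotypes, Klf3 (0.48 ± 0.17, FDR 0.183), Klf5 (−1.05 ± 0.46, FDR 0.277) and Klf13 (−0.47 ± 0.23, FDR 0.346) did not pass the test of the interaction.

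Of 16 other genes of the Klf and Sp families, 9 passed the filter. Klf7, Sp2, Klf16, Sp4 and Sp5 rose with CDAHFD in WT livers (log2FC 1.14, 1.08, 0.91, 0.80 and 0.73). In TSP-1 null livers the first 3 and Sp5 rose (1.16, 0.98, 1.40 and 0.79). None fell. These counts of 5 and 4 of 9 lay near the shares over all genes of 44.1% and 41.9%. The median log2FC of the 9 was 0.73 in WT, beside 0.53 over all genes. In TSP-1 null livers their median was 0.40, below the 0.50 over all genes. Klf1, the master factor of red cell maturation, was the 1 family member called between genotypes, higher in NDKO by 0.59 (2.75 to 4.89 against 1.65 to 2.93 FPKM, FDR 0.0459). The 4 erythroid markers summed to 121 to 329 FPKM in NDKO and 121 to 175 in NDWT. They did not move together: the means of Hbb-bs, Hbb-bt and Hba-a1 were higher in NDKO, while that of Alas2 was lower (22.7 against 27.2 FPKM). None of the 4 was called between genotypes, and the part of red cell precursors or reticulocytes in the Klf1 value was not tested. Sp1, Sp3 and Klf12 were tested and not called in any comparison. Klf8, Klf17, Sp7 and Sp9 stayed under the filter, and Klf14, Sp6 and Sp8 were listed at 0 in every library.

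Among 12 cofactors and ubiquitin ligases of the family, 6 rose with CDAHFD in each genotype, near the shares over all genes of 44.1% and 41.9%, and none fell or was called between genotypes. They included Hdac1 (0.97 in WT and 1.03 in TSP-1 null livers), the co-repressor Ctbp2 (1.73 and 1.67, which passed the filter only with the help of its CDAHFD livers), and the deacetylases Hdac3 and Hdac2 (0.70 and 0.68 in WT). Their WT median of 0.58 lay beside 0.53 over all genes.

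Klf15 is known to regulate genes of amino acid and glucose metabolism. Of 14 such genes tested, 9 were called higher in NDKO than NDWT and none lower: Got1 (log2FC 2.01, an aminotransferase), Sdsl (0.90), Sds (1.68), Cps1 (1.10, the first enzyme of the urea cycle), Ppargc1a (1.28), Hal (0.98), Pck1 (0.82), Gpt2 (0.70) and Prodh (0.69). Over all genes 1.74% were called higher and 3.03% lower on the control diet. On CDAHFD only Oat of the list was called between genotypes, lower in HFKO by −0.93. With diet, 6 fell and 2 rose in WT livers and 10 fell in TSP-1 null livers, Tdo2 (−1.01), Prodh (1.12), G6pc (−1.66) and Oat (−0.70) having the lowest FDRs in WT. Over all genes 4.62% and 4% were called lower with diet and 44.1% and 41.9% higher. The interaction was called for Got1 (−1.77) and Oat (−1.10).

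Of 10 glucocorticoid response genes, 4 were called higher in NDKO than NDWT and none lower, namely Zbtb16 (2.34), Igfbp1 (1.98), Per1 (1.13) and Tsc22d3 (0.79). Over all genes 1.74% were called higher and 3.03% lower in that comparison. None of the 10 was called on CDAHFD between genotypes or in the interaction. With diet, 3 rose and 2 fell in WT livers, led by Sgk1 (1.98), Hsd11b1 (−0.72), Per1 (1.60) and Tsc22d3 (0.70), and 2 rose and 2 fell in TSP-1 null livers. Over all genes 44.1% and 41.9% were called higher and 4.62% and 4% lower. The median log2FC of the 10 was 0.26 in WT and −0.46 in TSP-1 null livers, below the 0.53 and 0.50 over all genes. Zbtb16 was the gene of this list closest to a Kruppel-like factor within groups, with an r of 0.81 to Klf13 over 20 libraries.

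Of 10 genes of TGF-beta signalling, the pathway for which Klf10 and Klf11 were named, 8 rose with CDAHFD in WT and 10 in TSP-1 null livers. Over all genes 44.1% and 41.9% were called higher. The median log2FC of the 10 was 0.89 in WT and 1.28 in TSP-1 null livers, beside 0.53 and 0.50 over all genes. Tgfbr1 (1.53), Tgfb1 (1.99), Tgfbr2 (1.41) and Tgif1 (0.88) had the lowest FDRs in WT. On the control diet Id1 (−1.07) and Smad7 (−0.76), both targets of the pathway, were lower in NDKO, while Ctgf was higher (1.03). No gene of the list was called between genotypes on CDAHFD or in the interaction.

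Of 16 immediate early genes, a group in which Klf2, Klf4, Klf6 and Klf10 are often counted, 13 rose with CDAHFD in WT and 15 in TSP-1 null livers and none fell. Over all genes 44.1% were called higher in WT and 41.9% in TSP-1 null livers. Egr2 (4.51), Atf3 (4.79), Myc (2.54) and Fos (2.97) led in WT. Of the 16, Egr2, Egr3, Fos and Fosb passed the filter only with the help of their CDAHFD livers. On the control diet Myc was higher (1.20) and Atf3 (−0.84) and Jun (−1.39) lower in NDKO, on CDAHFD Egr1 was higher in HFKO (1.61), and none was called in the interaction. Of 16 clock genes, 5 rose and 2 fell in WT (Per1 1.60, Hlf −0.77, Bhlhe41 1.07 and Nfil3 −1.33 with the lowest FDRs) and 6 rose and 1 fell in TSP-1 null livers. Over all genes 44.1% and 41.9% were called higher and 4.62% and 4% lower. The median log2FC of the 16 clock genes was 0.29 in WT and 0.42 in TSP-1 null livers, below the 0.53 and 0.50 over all genes. Npas2 passed the filter only with the help of its CDAHFD livers, so a diet difference was built into its being tested. Per1 was higher (1.13) and Bhlhe41 (−1.47) and Per2 (−0.77) lower in NDKO, Bhlhe41 was called in the interaction (1.51), and none was called between genotypes on CDAHFD.

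In whole liver, fewer cells of a type and less RNA per cell cannot be told apart. Markers of several cell types were also called with diet, where 44.1% of all genes in WT and 41.9% in TSP-1 null livers were called higher. Stellate cell and myofibroblast markers rose for 9 of 9 genes in both genotypes (Lum 4.20, Col3a1 4.46, Dcn 2.22 and Col1a1 5.26 in WT), their sum lying between 52.1 and 73.0 FPKM on the control diet and between 268 and 524 on CDAHFD. Their Acta2 was lower in NDKO (−1.13). Cholangiocyte markers rose for 5 of 5 tested genes in both genotypes (Spp1 4.76, Krt19 3.88, Epcam 4.54 and Sox9 2.75), from sums of 12.4 to 18.0 to sums of 182 to 488 FPKM. These sums were mostly Spp1, with a mean of 13.6 FPKM in NDWT and 379 in HFWT, of mean sums of 16.3 and 414. Krt7 and Krt19 passed the filter only with the help of their CDAHFD livers, so their rise was built into their being tested. These rises stood beside those of Klf6, Klf5 and Klf4, and the part of such cells in them was not tested.

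Macrophage markers rose for 4 of 7 genes in WT and 5 in TSP-1 null livers (Lyz2 4.28, Cd68 2.98 and Csf1r 1.37 in WT), with the Kupffer cell marker Clec4f lower (−1.22), their sum going from 173 to 302 FPKM to 616 to 1386. Over all genes 44.1% and 41.9% were called higher. The median log2FC of the 7 was 1.32 in WT and 1.30 in TSP-1 null livers, beside 0.53 and 0.50 over all genes. Lyz2 alone had a mean of 44.6 FPKM in NDWT and 870 in HFWT, of mean sums of 231 and 1163. T and B cell markers rose for 7 of 8 genes in both genotypes (Cd3g 1.91, Cd79a 1.45, Cd8a 2.55 and Cd3d 2.01), from sums of 1.75 to 5.06 to sums of 6.34 to 15.4 FPKM, where Cd3d, Cd3e, Cd8a and Ms4a1 passed the filter only with the help of their CDAHFD livers. Neutrophil markers rose for 4 of 4 tested genes in both genotypes (Csf3r 2.42, S100a9 3.27, S100a8 2.77 and Retnlg 2.94), while Ly6g was at 0 in every NDWT and HFWT library. Hepatocyte markers fell for 1 of 8 genes in WT (Serpina1c −1.70) and 2 in TSP-1 null livers, and 1 of 4 erythroid markers fell in WT (Alas2 −0.71) and 2 in TSP-1 null livers. Over all genes 4.62% and 4% were called lower. The median log2FC of the 8 hepatocyte markers was −0.29 in WT and −0.21 in TSP-1 null livers, below the 0.53 and 0.50 over all genes. Apart from Acta2, no marker of these lists was called between genotypes on either diet or in the interaction.

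Klf2 is best known from endothelium and lymphocytes. Of 9 endothelial markers, Vwf (1.04), Lyve1 (1.10) and Eng (0.64) rose in WT and 4 in TSP-1 null livers, and none fell. Over all genes 44.1% and 41.9% were called higher. The median log2FC of the 9 markers was 0.06 in WT and 0.33 in TSP-1 null livers, below the 0.53 and 0.50 over all genes. The sum of the 9 lay between 68.2 and 90.3 FPKM on the control diet and between 76.6 and 139.6 on CDAHFD. Of 5 tested targets of Klf2 in endothelium and lymphocytes, 4 rose in both genotypes, Vcam1 (1.92 in WT), Thbd (1.64), the thrombin receptor thrombomodulin, Edn1 (1.38) and Nos3 (0.75), and none was called between genotypes. The fifth, S1pr1, was at 13.3 ± 2.78 FPKM (SD, n = 5) in NDWT and 12.0 ± 1.11 in HFWT (log2FC −0.13), and at 9.66 ± 2.63 in NDKO and 12.6 ± 2.30 in HFKO (0.40), not called in either. Edn1 had too few control-diet libraries above 0.5 FPKM to pass the filter without its CDAHFD livers. The list does not separate targets that Klf2 raises from those it lowers, and the part of Klf2 in these changes was not tested.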

How the data were processed

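Poly(A) RNA from frozen liver of 20 mice was sequenced in paired ends. The labels place the tissue in the right medial lobe and the paper's methods in the right lateral lobe. The authors deposited FPKM values to 3 decimals for 38924 genes, without further scaling between libraries. The submitters' processing notes name STAR 2.5.2, Subread 1.5.1 and featureCounts, and the build GRCh38, although the coordinates in the table are those of mouse GRCm38. Whether counting used strand is not given in the sources used here. Whole fragments were recovered from FPKM, gene length and library total (100% of checked values whole within 0.1 fragment), which gave depths of 15641558 to 23276326. Floors of 3 fragments cover counting error only, while each SE and SD comes from the spread between livers.

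Groups and replicate numbers follow the labels, with each library taken as 1 mouse. log2(FPKM + 0.1) was fitted in limma 3.58.1 (R 4.3.3; lmFit, contrasts.fit, eBayes with trend; a mean per group, all 20 libraries) for the 14524 genes above 0.5 FPKM in at least 5 libraries, and two-sided p-values were adjusted by Benjamini-Hochberg within each comparison. The script was tested on simulated data. No 2 libraries of a group agreed within sampling noise. Replicate numbers did not pair the mice. Motifs and figures were made in Python 3.11.15 with pandas 2.3.3, numpy 2.4.6 and matplotlib 3.10.9. All 10 members were named, with the called genes of 16 lists (at most 4 of lowest FDR with diet in WT, and any called between genotypes), the 3 genes closest to each called member, and Sp1, Sp3, Klf12, S1pr1 and genes that passed the filter only with CDAHFD livers, added after their values were seen. Some genes of these lists are not reported here. Emr1, Trf and Gm129 are the table's symbols for Adgre1, Tf and Ciart. Members and lists were chosen with earlier results of these data known. Alternatives covered scaling, pseudocount, filter, threshold, variance model, replicate block and each library left out.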

Additional observations from a re-analysis of the deposited data

Results flagged for a closer look

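Klf11 in HFWT had 1 liver apart from the other 4. Replicate 1 measured 5.49 FPKM against 4.06 to 4.37 in the rest, and its gap to the nearest was 0.786 of the group's range, above the critical value of 0.71 for 5 values. This was 1 of 40 sets of 5 values examined (10 genes in 4 groups), and chance flags about 1 set in 20. Without this liver the Klf11 interaction was 1.20 with an FDR of 0.0252.

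The effect of CDAHFD on Klf11 differed between genotypes, with an interaction log2FC of 1.13 ± 0.24 and an FDR of 0.0301 in limma. The call was lost with no filter on low values (FDR 0.0538) and without any 1 of 12 of the 20 libraries (FDR 0.0502 to 0.0667). WT livers had a diet log2FC of −0.31 and TSP-1 null livers one of 0.83, and the lowest group of the 4 was NDKO, at 2.74 ± 0.89 FPKM (SD, n = 5).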

How the results depend on the processing

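Of 540 values for single genes under alternatives of scaling, pseudocount, filter, threshold, variance model or block, 506 kept direction and call, 5 changed sign, 16 gained and 13 lost a call; of 1000 with 1 library left out these were 977, 6, 5 and 12. Under median of ratios and quantile normalization the WT diet effect turned to −0.49 and −0.28 for Klf3 and to −0.31 and −0.33 for Klf10, and the Klf15 interaction to 0.0053 under quantile normalization. Quantile normalization left 2 of the 7 diet calls in TSP-1 null livers. Median of ratios raised the control-diet genotype calls from 2 to 4, and dropping the fold threshold gave 1 (Klf15) on CDAHFD. The limma FDR of that Klf15 difference reached 0.0733 over the alternatives. These scalings set the median of all genes to −0.01 and −0.09 with diet, from 0.53 (WT) and 0.50, and moved the share of higher among all genes called in WT from 6412 of 7083 to 3299 of 5541 and 2514 of 5076. The Klf11 interaction left 0 calls with no filter on low values (FDR 0.0538) and with the replicate block (FDR 0.0593), and 0 to 1 with 1 library left out. Replicate numbers were used as a replicate block although same-numbered livers did not deviate together (r −0.133 to 0.0807 in 20 pairs, none above 0.1), and the replicate block changed no other call. With 1 library left out, the Klf5 genotype effect on CDAHFD lay between −0.44 and 0.058, the Klf9 interaction between −0.062 and 0.11 and the Klf15 interaction between −0.12 and 0.0049, and counts of members called were 5, 7 to 8, 2 to 3 and 0 in the diet (WT, TSP-1 null) and genotype (control diet, CDAHFD) comparisons. Causes were not tested. Klf5 rested on at most 2 fragments per NDWT library and 7 per NDKO library, which limits every value of it on the control diet. The 5 libraries per group are taken as separate mice, and p-values measure the spread between them.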
